A study of Homo sapiens with 8 samples.

Results

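Interferon-stimulated genes, antigen presentation genes and the cGAS-STING pair were examined in MiaPaCa-2 cells depleted of BARD1. The set had 56 symbols, taken by name from the gene table: 28 antiviral effectors, 7 genes of nucleic acid sensors, RNA-acting enzymes and STING, 4 transcription factors, 10 genes of ISG15 conjugation, ubiquitin transfer and ADP-ribosylation, and 7 genes of class I antigen presentation. Of these, 55 were in the table of 25945 genes, 49 had enough reads to be tested, and IFI44L was not analysed here. MiaPaCa-2 is an established human pancreatic cancer cell line, and the labels call its genotype wild type. BARD1 siRNA was transfected in 4 libraries and scrambled control siRNA in 4 libraries, both for 48 h, and polyadenylated RNA was sequenced. Whether replicates were separate cultures is not stated in the labels, so every p-value rests on the spread between these 8 libraries, and that spread may be technical. They name no interferon treatment and no drug. Gene coordinates are on GRCh37 unless another build is named.

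Type I interferons bind a receptor on the cell surface, and JAK kinases then activate STAT proteins. The complex of STAT2, IRF9 and their partner enters the nucleus and binds the interferon-stimulated response element (ISRE), which switches on effectors that block viral entry, translation and replication. Cytosolic DNA can start the same programme: cGAS, the product of MB21D1, makes a cyclic dinucleotide that activates STING, the product of TMEM173, and STING recruits a kinase for IRF3. Cells with unrepaired DNA breaks can form micronuclei that cGAS detects, and the same interferon programme raises peptide processing and class I antigen display. BARD1 itself binds BRCA1, and the pair acts as a ubiquitin ligase in homologous recombination.

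Promoter sequences of the members are shown for the ISRE, the motif that this complex binds. They come from RefSeq windows on GRCh38.p14, from 250 bases before to 50 bases after a transcript start, and 43 of the 56 members had at least 1 window. The ISRE was searched as GAAA, any 2 bases, then GAAA, on both strands (TTTC, 2 bases, TTTC on the other). This spelling was in 27 of the 43 members and missing from these windows in 16. Other spellings were not searched, so a window without this one may still hold an ISRE. Counted by window, 31 of 58 member windows held the searched spelling (53.4%), against 703 of 22199 protein-coding windows (3.17%). The gamma-activated site, searched as TTCNNNGAA, was in 12 of the 58 windows (20.7%), against 6.79% of all. The 4 windows below are examples that hold the searched spelling, and not every gene called is printed. Of their genes, IFIT5 passed the test with all 8 libraries, and IFIH1 and IFITM3 passed with a replicate block. BST2, chosen after its values were seen, separated 2 libraries from the rest. These windows lie at chr10:89414318-89414617 on the plus strand for IFIT5, and on the minus strand at chr2:162318635-162318934 for IFIH1, chr19:17405581-17405880 for BST2 and chr11:320811-321110 for IFITM3. Each is written 5′ to 3′ along the gene's strand, and capitals mark the ISRE matches, run together where they overlap.
IFIT5: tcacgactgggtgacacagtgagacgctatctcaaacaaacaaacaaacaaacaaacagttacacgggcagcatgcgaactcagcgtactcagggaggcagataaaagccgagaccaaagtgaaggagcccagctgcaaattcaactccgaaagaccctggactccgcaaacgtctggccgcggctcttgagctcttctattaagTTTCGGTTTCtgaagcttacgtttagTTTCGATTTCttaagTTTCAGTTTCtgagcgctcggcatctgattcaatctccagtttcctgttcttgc
IFIH1: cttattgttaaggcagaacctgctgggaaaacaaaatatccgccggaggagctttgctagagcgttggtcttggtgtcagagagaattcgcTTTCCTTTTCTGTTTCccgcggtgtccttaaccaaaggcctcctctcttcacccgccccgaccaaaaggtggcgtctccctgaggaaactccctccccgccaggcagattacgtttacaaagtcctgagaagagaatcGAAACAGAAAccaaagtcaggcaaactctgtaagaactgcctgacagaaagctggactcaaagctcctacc
BST2: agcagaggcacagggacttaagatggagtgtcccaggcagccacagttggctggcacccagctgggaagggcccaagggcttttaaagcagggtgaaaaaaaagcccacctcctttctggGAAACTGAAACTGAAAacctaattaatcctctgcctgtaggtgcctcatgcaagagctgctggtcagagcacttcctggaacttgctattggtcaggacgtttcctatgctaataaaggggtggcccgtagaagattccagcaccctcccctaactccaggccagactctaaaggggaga
IFITM3: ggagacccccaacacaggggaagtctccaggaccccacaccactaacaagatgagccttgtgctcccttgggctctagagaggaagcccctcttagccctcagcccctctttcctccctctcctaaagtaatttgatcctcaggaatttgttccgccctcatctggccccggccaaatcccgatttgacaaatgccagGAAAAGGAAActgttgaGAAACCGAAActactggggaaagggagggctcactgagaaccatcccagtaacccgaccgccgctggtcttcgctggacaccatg
IFIT5 and IFIH1 each held 3 matches, and BST2 and IFITM3 held 2 each. The match nearest the start began at base -4 in IFIT5, -21 in IFIH1, -35 in IFITM3 and -124 in BST2, counted from the transcript start. The windows of SP100, ADAR, STAT2, IRF1 and HLA-B held no such letters, and PML had no window.

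A second sequence feature was looked at because an earlier look at these data had found it in genes that were lower with BARD1 siRNA. This is the octamer ATACAGAA in the 3′ untranslated region (UTR), read from GENCODE transcripts on GRCh38. Among the members only HERC6 held it, 1 of 49 (2.04%), against 778 of 12110 tested genes with a UTR (6.42%). It was in 134 of 456 genes lower with BARD1 siRNA (29.4%) and 7 of 251 genes higher (2.79%). Because the octamer was taken from these same data, its share among the lower genes is not an independent result. The octamer or one of its heptamers, ATACAGA and TACAGAA, was in 9 members (18.4%), against 25.4% of all tested genes. IFIT5, SP100 and PML held neither, and IFIH1 held a heptamer. The sites of HERC6, at chr4:88442262-88442291 on the plus strand, and of CANX, an antigen-processing gene described further on, at chr5:179729797-179729826 on the plus strand, are printed with the octamer in capitals.
HERC6: tgcaagaggcATACAGAAaatggaaatagt
CANX: aggcaaaccaATACAGAAttgactgcagtt
Matches describe the sequence only, and neither feature was tested as a cause of any value.

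The targeted gene went the way its label says. BARD1 (ENSG00000138376, GRCh37 chromosome 2, 215590370 to 215674428, minus strand) had 3.56, 2.24, 2.45 and 7.59 CPM (counts scaled for depth, by TMM) in BARD1 siRNA libraries 1 to 4, against 26.9, 28, 26.9 and 20.8 CPM in control siRNA libraries 1 to 4. The groups did not overlap, and the libraries numbered 4 were nearest to each other. This gave a log2 fold change of -2.69 (SE 0.36, edgeR adjusted p = 0.00397), and the exact permutation test of the 8 values, two-sided, gave p = 0.0286, the smallest that 70 arrangements allow.

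Total counts were 27565777 to 36212716 in BARD1 siRNA libraries and 24458665 to 32627983 in control siRNA libraries, so 3 counts, the floor used here, were worth 0.0842 to 0.125 CPM. Both libraries numbered 4 stood apart: the first principal component, with 40.0% of the variance, separated them from the other 6, and the second, with 22.1%, separated the siRNAs. Mitochondrial genes took 4.44% of counts in BARD1 siRNA library 4 and 3.26% in control siRNA library 4, against 0.695% to 2.02% in the other 6. Of the markers of the labelled cell type, KRT8, KRT18, KRT19 and VIM were high, while EPCAM and CDH1, which define most epithelial cells, were at or near 0. Because of the libraries numbered 4, counts of changed genes over all members, all pathway genes and all genes are given in 3 ways. These are for all 8 libraries, with the replicate number as a block, and without both libraries numbered 4. Counts of changed genes by role are for all 8 libraries only.

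Levels per length span a wide range among the members. In the deposited FPKM values (fragments scaled for gene length and for depth), 9 of 55 members averaged 10 FPKM or more over the 8 libraries and 19 averaged under 1 FPKM. The membrane protein gene IFITM3, which restricts viral entry, was highest with 111 ± 101 FPKM in BARD1 siRNA libraries and 126 ± 65.3 FPKM in control siRNA libraries (SD, n = 4 each). B2M, the shared light chain of class I molecules, followed with 98 ± 22.7 FPKM with BARD1 siRNA and 97.8 ± 15.1 FPKM with control siRNA. ADAR, the enzyme that edits adenosine to inosine in double-stranded RNA, had 69.4 ± 2.34 FPKM with BARD1 siRNA and 59.2 ± 2.25 FPKM with control siRNA. IFITM2, a close relative of IFITM3, had 55.9 ± 46.9 FPKM with BARD1 siRNA and 66.2 ± 29.6 FPKM with control siRNA, and HLA-B, a class I heavy chain gene, had 28.2 ± 9.06 FPKM with BARD1 siRNA and 24.2 ± 6.41 FPKM with control siRNA. B2M was above ADAR and IFITM2 was above HLA-B in every library, while IFITM3 and IFITM2 spread over the levels of B2M and ADAR, so those 4 have no firm order as a whole. At the low end the 6 untested members had 16 to 52 reads each in all 8 libraries together: OAS1, IFI27, CMPK2, SAMD9L, XAF1 and TRIM22.

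**Figure D1:**
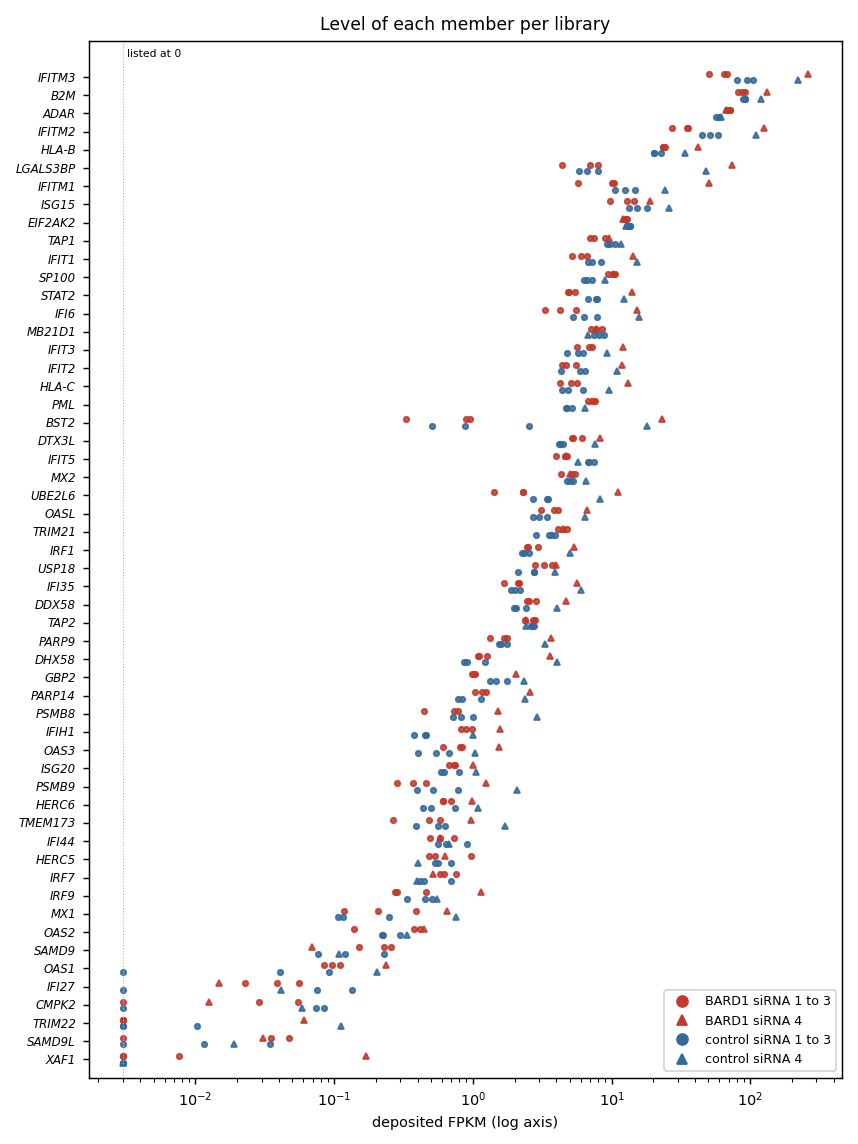
Deposited FPKM of the 55 members in each of the 8 libraries, on a log axis, ordered by mean level, with BARD1 siRNA in red above control siRNA in blue. Triangles are the libraries numbered 4, which lie to the right of the circles in most genes, by far in BST2 and LGALS3BP, and points at the dotted line are listed at 0.

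With all 8 libraries, 3 of the 49 members tested changed with BARD1 siRNA (edgeR, adjusted p under 0.05 over all genes), against 5.05% of the 14528 genes tested. SP100 and PML were higher, 2 of 49, where 1.82% of all genes were higher, and IFIT5 was lower, 1 of 49, where 3.22% of all genes were lower. The other 46 did not pass. An unadjusted p under 0.05 by edgeR was found in 7 of the 49 members, against 2745 of the 14528 genes tested. Counts of this kind given by role below have this same background. The median log2 fold change of the members was 0.063, against 0.0088 for all genes, and no member was beyond 1 in size. With the replicate block 12 members changed, 6 higher and 6 lower, against 23.6% of all genes, 11.0% higher and 12.6% lower. Without both libraries numbered 4, 14 members changed, 5 higher and 9 lower, against 30.4% of all genes, 15.0% higher and 15.4% lower. The members' shares in these fits were 6.12%, 24.5% and 28.6%, near those of all genes, and 10 members were called in both of the latter fits. All BARD1 siRNA libraries lay above all controls in 4 of the 49 members, SP100, PML, ADAR and TRIM21, against 793 of the 14528 genes. They lay below all controls in 2 members, IFIT5 and TAP1, against 1092 genes. Groups that do not overlap are therefore not particular to the members. RNA was measured in bulk, so fewer cells expressing a gene and less of its RNA per cell cannot be told apart.

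**Figure D2:**
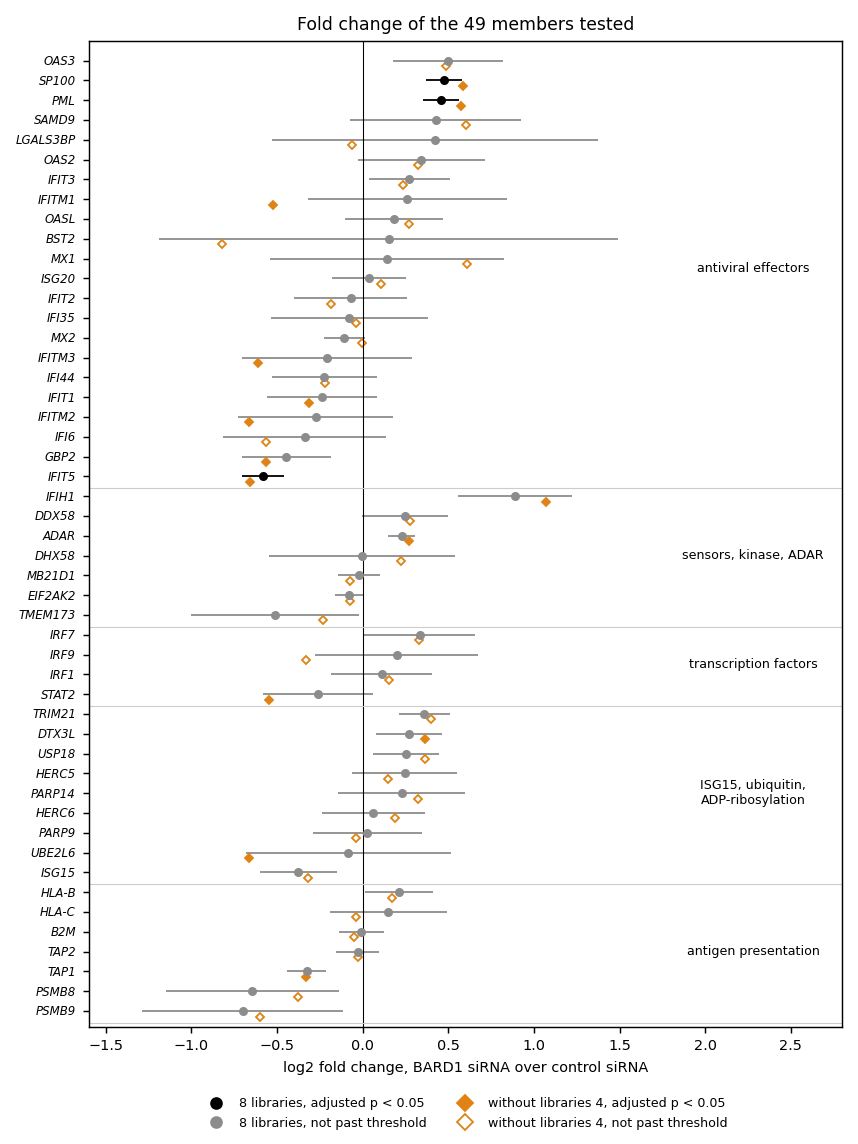
Log2 fold change of the 49 tested members, BARD1 siRNA over control siRNA, grouped by role, with circles and SE bars for all 8 libraries and diamonds for the fit without both libraries numbered 4. Black circles mark SP100, PML and IFIT5, filled diamonds mark the 14 members past the threshold without the libraries numbered 4, and in BST2 and IFITM1, among others, the circle and the diamond lie on opposite sides of 0.

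Among the antiviral effectors 2 of 22 tested were higher and 1 was lower with all 8 libraries. SP100 (ENSG00000067066, chromosome 2, 231280657 to 231408805), which encodes a core protein of PML nuclear bodies, had 40.5, 38.0, 41.8 and 37.0 CPM in BARD1 siRNA libraries 1 to 4, against 28.7, 26.3, 25.1 and 33.2 CPM in control siRNA libraries 1 to 4. All 4 BARD1 siRNA libraries lay above all 4 controls, with the smallest gap in the pair numbered 4. The log2 fold change over the 8 libraries came to 0.47 (SE 0.10, edgeR adjusted p = 0.033). PML (ENSG00000140464, chromosome 15, 74287014 to 74340153), the scaffold of the same nuclear bodies and an interferon-induced restriction factor, had 41.0, 37.5, 41.6 and 36.3 CPM in BARD1 siRNA libraries, against 25.8, 28.8, 26.2 and 33.1 CPM in control siRNA libraries. The groups again did not overlap, and control siRNA library 4 was the highest of the controls. BARD1 siRNA differed from control siRNA by 0.46 on the log2 scale (SE 0.10, edgeR adjusted p = 0.036).

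IFIT5 (ENSG00000152778, chromosome 10, 91174343 to 91180758) encodes an RNA-binding member of the IFIT family, and it was the only member that fell in the fit of all 8 libraries. It had 19.3, 19.2, 16.2 and 17.7 CPM in BARD1 siRNA libraries 1 to 4, against 30.3, 28.4, 27.9 and 21.9 CPM in control siRNA libraries 1 to 4. Every BARD1 siRNA library lay below every control, and control siRNA library 4 was the lowest control. The difference on the log2 scale was -0.58 (SE 0.12, edgeR adjusted p = 0.028), and -0.66 without both libraries numbered 4. Each of the 3 calls was lost when any 1 library numbered 1 to 3 was left out and held when 1 library numbered 4 was: over the 8 fits the adjusted p ran from 0.0086 to 0.109 for IFIT5, 0.00881 to 0.122 for SP100 and 0.0087 to 0.131 for PML.

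The neighbours of IFIT5 on chromosome 10, IFIT1, IFIT2 and IFIT3, encode proteins that bind viral RNA, and none of them passed with all 8 libraries. Their log2 fold changes were -0.24 for IFIT1, -0.07 for IFIT2 and 0.27 for IFIT3. IFIT1 passed without both libraries numbered 4, at -0.31 (adjusted p = 0.0458). These 3 genes lie within the span of LIPA on the opposite strand, and the strand setting of the counts is not stated in the sources used here; some of their reads may come from LIPA. The genes of 2′-5′ oligoadenylate synthesis, whose product activates RNase L, were low: OAS3 had 4.18, 5.59, 5.77 and 9.62 CPM in BARD1 siRNA libraries 1 to 4, against 2.76, 4.59, 3.74 and 6.67 CPM in control siRNA libraries. OAS3 was higher in the BARD1 siRNA library of all 4 pairs, but the groups overlapped, with a log2 fold change of 0.50 (SE 0.32, edgeR adjusted p = 0.472) and 0.51 with the replicate block (adjusted p = 0.0359). Without both libraries numbered 4 it was 0.48 and did not pass (adjusted p = 0.11).

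The IFITM genes of chromosome 11 encode membrane proteins that hold back viral fusion. IFITM3 (ENSG00000142089, 319669 to 327537, minus strand) had 56.1, 54.0, 41.2 and 197 CPM in BARD1 siRNA libraries 1 to 4, against 86.3, 78.6, 66.7 and 171 CPM in control siRNA libraries 1 to 4. Libraries 1 to 3 were all lower with BARD1 siRNA than their controls, and in the pair numbered 4 BARD1 siRNA was the higher. This gave a log2 fold change of -0.21 (SE 0.50, edgeR adjusted p = 0.894), with the replicate block -0.40 (adjusted p = 0.0217) and without both libraries numbered 4 it was -0.61 (adjusted p = 4.03e-05). IFITM2 followed the same course, with 23.9, 23.7, 18.2 and 77.6 CPM in BARD1 siRNA libraries, against 39.5, 30.3, 34.6 and 68.7 CPM in control siRNA libraries. The log2 fold change over the 8 libraries came to -0.27 (SE 0.45, edgeR adjusted p = 0.832), -0.44 with the block (adjusted p = 0.0301) and -0.66 without both libraries numbered 4 (adjusted p = 6.48e-05). The IFITM genes are close in sequence and IFITM1 overlaps IFITM2 on the same strand, so reads may be split between them and the members are not independent.

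Among the genes of sensors, RNA-acting enzymes and STING, 0 of 7 passed with all 8 libraries by edgeR or DESeq2, and 2 had an unadjusted p under 0.05. IFIH1 (ENSG00000115267, chromosome 2, 163123589 to 163175213, minus strand) encodes MDA5, which detects long double-stranded RNA. It had 3.62, 3.32, 3.01 and 5.29 CPM in BARD1 siRNA libraries 1 to 4, against 1.69, 1.38, 1.67 and 3.45 CPM in control siRNA libraries 1 to 4. It was higher with BARD1 siRNA in each of the 4 pairs, and the groups overlapped only through control siRNA library 4. The log2 fold change of 0.89 (SE 0.33, edgeR adjusted p = 0.174) was the highest of the 49 members. With the replicate block it was 0.94 (adjusted p = 0.00827) and without both libraries numbered 4 it was 1.07 (adjusted p = 0.00456).

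ADAR (ENSG00000160710, chromosome 1, 154554538 to 154600475) marks cellular double-stranded RNA by editing so that MDA5 does not detect it. It had 483, 484, 456 and 415 CPM in BARD1 siRNA libraries 1 to 4, against 399, 401, 382 and 389 CPM in control siRNA libraries 1 to 4. All 4 BARD1 siRNA libraries lay above all controls. The difference was small, a log2 fold change of 0.23 (SE 0.08, edgeR adjusted p = 0.138), and it passed with the block (0.22, adjusted p = 0.00652), without both libraries numbered 4 (0.27, adjusted p = 4.53e-05) and with upper-quartile scaling (0.25, adjusted p = 0.0444). The other RNA sensors DDX58, which encodes RIG-I, and DHX58, which encodes LGP2, had log2 fold changes of 0.25 for DDX58 and -0.0046 for DHX58 that did not pass. EIF2AK2, encoding the kinase PKR that halts translation on double-stranded RNA, had -0.08, which did not pass.

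The cGAS and STING genes differed in level, and neither passed. MB21D1 (ENSG00000164430, chromosome 6, 74123238 to 74161999), which encodes cGAS, had 7.07, 8.49, 7.69 and 7.71 FPKM in BARD1 siRNA libraries 1 to 4, against 8.15, 8.84, 7.51 and 6.76 FPKM in control siRNA libraries 1 to 4. The groups overlapped throughout, with a log2 fold change near 0, at -0.02 (SE 0.12, edgeR adjusted p = 0.963) that became 0.0073 under upper-quartile scaling. TMEM173 (ENSG00000184584, chromosome 5, 138855119 to 138862520), which encodes STING, had 0.578, 0.483, 0.265 and 0.975 FPKM in BARD1 siRNA libraries, against 0.557, 0.626, 0.393 and 1.70 FPKM in control siRNA libraries. On this per-length scale every library had less TMEM173 than MB21D1. TMEM173 was highest in the library numbered 4 of each group, and the siRNAs differed by -0.51 on the log2 scale (SE 0.49, edgeR adjusted p = 0.664).

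Of the 4 transcription factors, 0 passed with all 8 libraries by edgeR or DESeq2, and 0 had an unadjusted p under 0.05. STAT2, the signal transducer of type I interferon, had 18.3, 16.3, 16.5 and 43.2 CPM in BARD1 siRNA libraries 1 to 4, against 25.8, 26.4, 22.6 and 38.3 CPM in control siRNA libraries 1 to 4. Libraries 1 to 3 were lower with BARD1 siRNA in every pair, and BARD1 siRNA library 4 was the highest of the 8. BARD1 siRNA differed from control siRNA by -0.26 on the log2 scale (SE 0.32, edgeR adjusted p = 0.754), with the block -0.35 (adjusted p = 0.0476), and without both libraries numbered 4 it was -0.54 (adjusted p = 0.000248). IRF1, which drives class I genes after interferon gamma, had 15.4, 13.1, 13.1 and 25.8 CPM in BARD1 siRNA libraries, against 13.3, 12.4, 11.9 and 24.7 CPM in control siRNA libraries, with a log2 fold change of 0.11 (edgeR adjusted p = 0.904). IRF7, which amplifies interferon alpha production, had 1.57, 1.30, 1.21 and 0.98 CPM in BARD1 siRNA libraries, against 0.86, 1.46, 0.94 and 0.77 CPM in control siRNA libraries, with overlapping groups (edgeR adjusted p = 0.67). IRF9, the DNA-binding partner of STAT2, had 0.53, 0.88, 0.52 and 1.97 CPM in BARD1 siRNA libraries, against 0.95, 0.63, 0.85 and 0.96 CPM in control siRNA libraries (edgeR adjusted p = 0.895). Its log2 fold change was 0.20 over 8 libraries and -0.33 without both libraries numbered 4, and it overlaps RNF31 on the same strand.

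**Figure D3:**
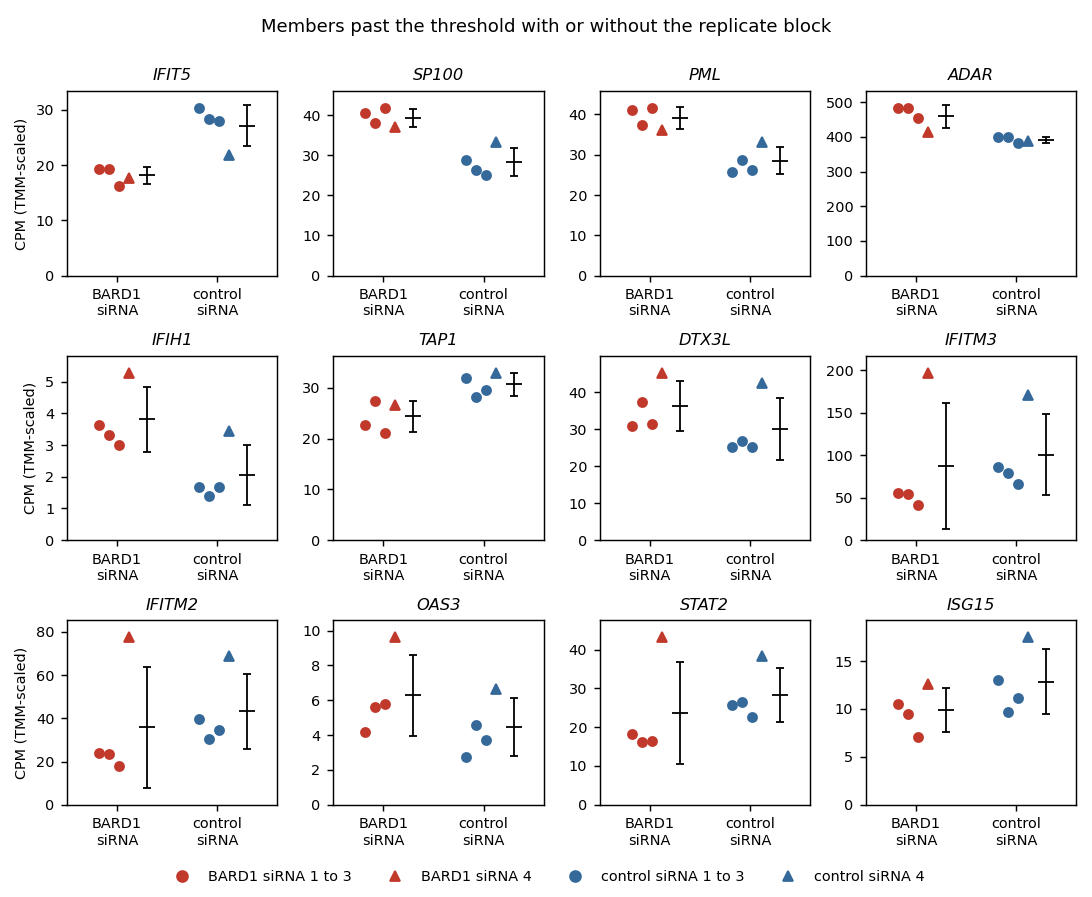
TMM-scaled CPM of the 12 members past the threshold with or without the replicate block, with BARD1 siRNA (red) left of control siRNA (blue), triangles for the libraries numbered 4, and bars for mean ± SD of 4. SP100, PML, ADAR, IFIT5 and TAP1 do not overlap between groups, while the triangles of IFITM3, IFITM2 and STAT2 lie far above the circles in both groups.

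In the group of ISG15 conjugation, ubiquitin transfer and ADP-ribosylation, 0 of 9 tested genes passed with all 8 libraries by edgeR or DESeq2, and 1 had an unadjusted p under 0.05. DESeq2 gave no p-value for UBE2L6 of this group. ISG15 (ENSG00000187608, chromosome 1, 948803 to 949920), the ubiquitin-like protein that is joined to other proteins in the response, had 10.5, 9.49, 7.08 and 12.6 CPM in BARD1 siRNA libraries 1 to 4, against 13.0, 9.73, 11.2 and 17.5 CPM in control siRNA libraries 1 to 4. Every pair was lower with BARD1 siRNA, by little in the pair numbered 2, and the groups overlapped. The difference on the log2 scale was -0.37 (SE 0.22, edgeR adjusted p = 0.428), with the same value to 2 decimals and an adjusted p = 0.0487 with the block. Without both libraries numbered 4 it was -0.32 and did not pass (adjusted p = 0.134). DTX3L, a ubiquitin ligase that pairs with PARP9, had 31.0, 37.3, 31.4 and 45.3 CPM in BARD1 siRNA libraries, against 25.2, 26.9, 25.3 and 42.6 CPM in control siRNA libraries. It was higher with BARD1 siRNA in all 4 pairs, with a log2 fold change of 0.27 (SE 0.19, edgeR adjusted p = 0.523) 0.29 with the block (adjusted p = 0.0188) and 0.37 without both libraries numbered 4 (adjusted p = 0.00385). DTX3L and PARP9 overlap at their starts on opposite strands, so some reads may be mixed.

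Among the 7 antigen presentation genes 0 passed with all 8 libraries by edgeR or DESeq2, and 1 had an unadjusted p under 0.05. TAP1 (ENSG00000168394, chromosome 6, 32812986 to 32821755, minus strand), a subunit of the pump that brings peptides to class I molecules, had 22.6, 27.4, 21.1 and 26.7 CPM in BARD1 siRNA libraries 1 to 4, against 31.9, 28.2, 29.6 and 33.0 CPM in control siRNA libraries 1 to 4. The groups did not overlap, and the gap was smallest between the libraries numbered 2. This gave a log2 fold change of -0.33 (SE 0.11, edgeR adjusted p = 0.136), and the same size passed with the block (adjusted p = 0.0174) and without both libraries numbered 4 (adjusted p = 0.0149). The other pump subunit, TAP2, had a log2 fold change of -0.03 that did not pass. TAP1, with 6469 reads in all, overlaps PSMB9, an immunoproteasome gene with 477, so some reads may be mixed. Mixed reads would weigh more on PSMB9 than on TAP1.

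B2M had 192, 221, 208 and 286 CPM in BARD1 siRNA libraries 1 to 4, against 209, 217, 217 and 266 CPM in control siRNA libraries 1 to 4. The groups overlapped, and the siRNAs differed by -0.01 on the log2 scale (SE 0.13, edgeR adjusted p = 0.989), or 0.03 under upper-quartile scaling. HLA-B had 36.8, 37.3, 38.2 and 60.3 CPM in BARD1 siRNA libraries, against 35.5, 31.9, 32.2 and 49.4 CPM in control siRNA libraries. It was the higher with BARD1 siRNA in all 4 pairs but the groups overlapped, with a log2 fold change of 0.21 (SE 0.20, edgeR adjusted p = 0.651). HLA-B and HLA-C are near copies and their reads may be split. The immunoproteasome genes were low and did not pass, and PSMB9 overlaps TAP1 and PSMB8, so some of its reads may be theirs. PSMB8 averaged 1.16 ± 0.55 CPM with BARD1 siRNA and 1.80 ± 1.28 CPM with control siRNA, and PSMB9 averaged 1.54 ± 1.07 CPM with BARD1 siRNA and 2.49 ± 1.95 CPM with control siRNA (SD, n = 4 each).

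Many members differed more between the libraries numbered 4 and the others than between the siRNAs. In both libraries numbered 4 the members took more of the counts, 0.214% with BARD1 siRNA and 0.191% with control siRNA, against 0.130% to 0.136% in BARD1 siRNA libraries 1 to 3 and 0.125% to 0.134% in control siRNA libraries 1 to 3. By gene, with a term for siRNA, 39 of 49 members were higher in the libraries numbered 4, against 7478 of 14528 genes tested. The members' median log2 difference was 0.77, against 0.02 over all genes. The difference was above 1 in 18 members, against 1225 of the 14528 genes. In 33 members (67.3%) library 4 lay above the other 3 libraries of its group in both groups, against 28.8% of all genes. By role these were 15 of 22 antiviral effectors, 4 of 7 genes of sensors, RNA-acting enzymes and STING, 3 of 4 transcription factors, 6 of 9 genes of the ISG15 group and 5 of 7 antigen presentation genes. 3 members lay below in both groups, EIF2AK2, IRF7 and TAP2, against 4125 of the 14528 genes tested.

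The following were chosen after their values were seen. BST2, which encodes tetherin, a protein that holds budding virus at the cell surface, had 0.98, 0.94, 0.35 and 22.0 CPM in BARD1 siRNA libraries 1 to 4, against 2.63, 0.92, 0.53 and 17.5 CPM in control siRNA libraries 1 to 4. Its log2 difference of 4.29 between the libraries numbered 4 and the others ranked 1 among all 14528 genes tested. LGALS3BP, which encodes a secreted galectin-binding glycoprotein, had 19.6, 17.5, 10.7 and 167 CPM in BARD1 siRNA libraries, against 19.5, 16.2, 14.4 and 110 CPM in control siRNA libraries, a difference of 3.07 that ranked 12. UBE2L6, the conjugating enzyme for ISG15, differed by 1.84. Between the siRNAs none of the 3 passed with all 8 libraries by edgeR: the log2 fold changes were 0.15 for BST2 (SE 1.34), 0.42 for LGALS3BP (SE 0.95) and -0.09 for UBE2L6 (SE 0.60). DESeq2 gave no p-value for these 3 genes. Without both libraries numbered 4, UBE2L6 alone of the 3 passed, at -0.66 (adjusted p = 0.0313). SP100, PML, IFIT5, ADAR and MB21D1 differed by 0.10, 0.08, -0.22, -0.10 and -0.25. These are averages over both groups: in SP100 and PML, BARD1 siRNA library 4 was the lowest of its group and control siRNA library 4 the highest of its group, so that pair 4 differed by 0.16 in SP100 and 0.13 in PML on the log2 scale.

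**Figure D4:**
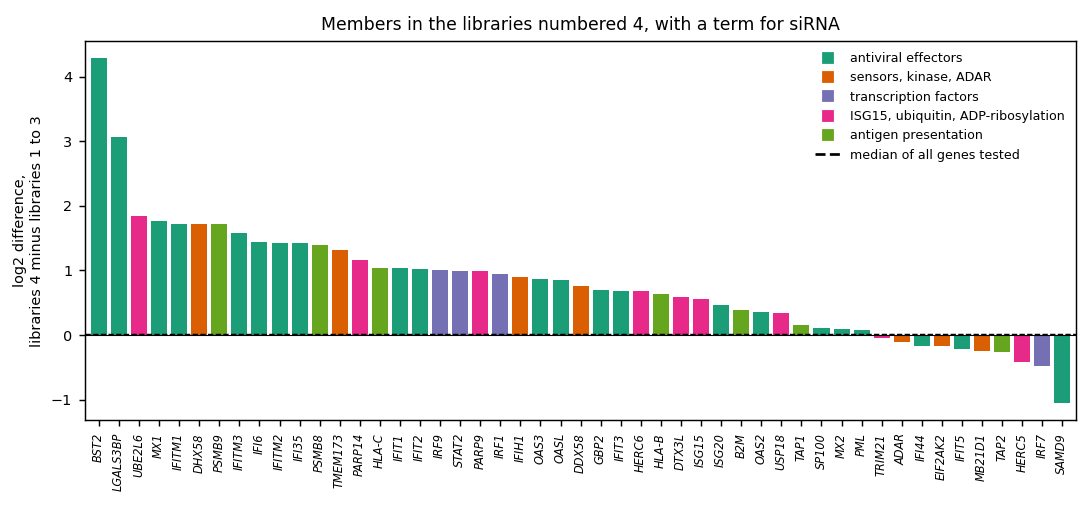
Log2 difference of each of the 49 tested members between the libraries numbered 4 and those numbered 1 to 3, fitted with a term for siRNA, coloured by role and ordered by size, with a dashed line at the median of all genes tested, 0.02. BST2 is the tallest bar at 4.29 and 39 of the 49 bars lie above 0.

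BARD1 siRNA was higher in all 4 pairs in 13 members (26.5%, against 19% of all genes). It was lower in all 4 pairs in 8 members (16.3%, against 20.9% of all genes). In other members the sign of the siRNA difference depended on the pair. In 5 members, IFITM1, IFITM2, IFITM3, STAT2 and UBE2L6, BARD1 siRNA was lower in the pairs numbered 1 to 3 and higher in the pair numbered 4 (10.2% of members, against 8.02% of all genes), and in 2 members the order was the opposite (4.08%, against 10% of all genes). The difference between pairs was not tested, since the pair numbered 4 holds 1 library of each siRNA. Leukocyte markers were also summed, since white cells express many of these genes. These markers summed to 4.38 to 4.80 FPKM in BARD1 siRNA libraries 1 to 3 and 13.4 FPKM in BARD1 siRNA library 4, against 5.91 to 6.37 FPKM in control siRNA libraries 1 to 3 and 11.6 FPKM in control siRNA library 4. CD14 made most of the excess, with 10.7 FPKM in BARD1 siRNA library 4 and 8.73 FPKM in control siRNA library 4, against 1.01 to 1.25 FPKM in BARD1 siRNA libraries 1 to 3 and 2.25 to 2.68 FPKM in control siRNA libraries 1 to 3. LYZ went the other way, with 2.54 FPKM in BARD1 siRNA library 4 and 2.26 FPKM in control siRNA library 4, against 3.19 to 3.55 FPKM in BARD1 siRNA libraries 1 to 3 and 3.5 to 3.69 FPKM in control siRNA libraries 1 to 3. PTPRC and CD3E had no values in the table, CD68 and HLA-DRA had 1 read each in all, and the part of other cells in the values of the libraries numbered 4 was not tested. The 4 fibroblast markers each averaged under 1 FPKM. Of the 4 endothelial markers CDH5 alone was tested and was higher with BARD1 siRNA, by 0.92 on the log2 scale (SE 0.19, edgeR adjusted p = 0.0278), while KDR had 1 read in all and PECAM1 had no values in the table.

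The other genes of the pathway came from a list of 76 genes of interferon ligands, receptors, signalling, DNA and RNA sensing, and antigen processing, written with earlier results of these data known. Of these, 63 were in the table and 56 were tested: 1 was higher, 3 were lower and 52 did not pass, 7.14% called, against 5.05% of all genes. With the replicate block 17 changed (30.4%, against 23.6%), and without both libraries numbered 4, 21 of 57 changed (36.8%, against 30.4%). None of the 10 interferon ligand genes could be tested, and IFNL2 alone had a row, with 4 reads in all. The chemokine genes CXCL9, CXCL10 and CXCL11 had no values in the table.

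CANX fell most among the 56 tested. It encodes calnexin, the chaperone that folds class I heavy chains in the endoplasmic reticulum. It had 261, 286, 275 and 439 CPM in BARD1 siRNA libraries 1 to 4, against 1576, 1646, 1597 and 1257 CPM in control siRNA libraries 1 to 4. The groups lay far apart, and the libraries numbered 4 were nearest to each other. The log2 fold change over the 8 libraries came to -2.27 (SE 0.18, edgeR adjusted p = 0.00031), and its 3′ UTR holds the octamer printed above.

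IFNGR1, the ligand-binding chain of the interferon gamma receptor, had 16.7, 16.9, 16.6 and 14.3 CPM in BARD1 siRNA libraries 1 to 4, against 26.0, 23.8, 28.2 and 26.8 CPM in control siRNA libraries 1 to 4. The groups did not overlap and BARD1 siRNA library 4 was the lowest of the 8, with a log2 fold change of -0.70 (SE 0.10, edgeR adjusted p = 0.00633). This call held in all 8 fits that left out 1 library. RNASEH2A, the catalytic subunit of an enzyme that removes ribonucleotides from DNA, had 45.9, 52.5, 40.8 and 46.9 CPM with BARD1 siRNA, against 60.1, 63.2, 60.0 and 60.8 CPM with control siRNA, with a log2 fold change of -0.39 (SE 0.09, edgeR adjusted p = 0.0351). It overlaps HOOK2 on the opposite strand. TRIM56, a ubiquitin ligase that acts on cGAS and STING signalling, had 36.7, 37.3, 33.2 and 40.1 CPM with BARD1 siRNA, against 27.2, 27.2, 28.4 and 30.2 CPM with control siRNA, with a log2 fold change of 0.38 (SE 0.09, edgeR adjusted p = 0.0393). In both genes, too, no control library lay within the range of the BARD1 siRNA libraries. RNASEH2A lost its call without BARD1 siRNA library 1 or 3 or control siRNA library 1, 2 or 3 (adjusted p = 0.107 to 0.126), and TRIM56 lost it without any 1 library numbered 1 to 3 (0.0644 to 0.142).

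SOCS1, an inhibitor of JAK kinases that interferon induces, was chosen after its values were seen. It had 16.4, 15.6, 16.1 and 5.18 CPM in BARD1 siRNA libraries 1 to 4, against 5.14, 5.51, 6.63 and 3.51 CPM in control siRNA libraries 1 to 4. BARD1 siRNA libraries 1 to 3 were all far above the controls, and library 4 lay among them. BARD1 siRNA differed from control siRNA by 1.36 on the log2 scale (SE 0.35, edgeR adjusted p = 0.0567), which missed the threshold, and with the replicate block it was 1.28 (adjusted p = 0.000126).

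The authors' deposited table gave an adjusted p for 47 members, and 3 were under 0.05, SP100 and PML higher and IFIT5 lower. Its log2 fold changes, by a tool that no source used here names, were 0.45 for SP100, 0.43 for PML and -0.53 for IFIT5 in the authors' deposited table. Over all genes, 1241 of 12911 with an adjusted p in the authors' deposited table were under 0.05. Of the pathway genes, CANX, IFNGR1, RNASEH2A and TRIM56 were under 0.05 there too. So were SOCS1, STAT3 and ERAP1, which did not pass by edgeR with all 8 libraries. For SOCS1 the authors' log2 fold change was 0.90 (authors' adjusted p = 0.00134).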

How the data were processed

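RNA of 8 MiaPaCa-2 libraries was analysed from 1 deposited gene table. It gave whole-number counts of reads for each gene, deposited by the authors without normalization, and FPKM values that the authors computed from them. Its log2 fold changes and adjusted p-values are the authors' own, deposited with the counts. Reads were processed with fastp, HISAT2 (version 2.0.5) and featureCounts on GRCh37 (hg19), per the submitters' processing notes. Annotation release and strand setting are not given in the sources used here. Of the deposited columns, 8 further per-sample columns were not used, and 22217 rows that named no gene held 0 reads.

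The test was run in edgeR (version 4.0.16 under R 4.3.3) after filterByExpr and TMM scaling, by the quasi-likelihood F-test, two-sided, with Benjamini-Hochberg adjustment over all 14528 genes tested and a threshold of 0.05. CPM are TMM-scaled, SE are those implied by the F statistic, and floors of 3 counts cover counting error only. The code was tested on simulated data. Alternatives were a replicate block, other scalings, no filter on low counts, DESeq2 (version 1.42.0), each library left out, and both libraries numbered 4 left out.

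The pairing comes from the replicate numbers in the labels. Over 10146 genes, deviations from the group means of libraries with 1 number correlated at 0.490, 0.487, 0.596 and 0.856 for numbers 1 to 4. Unlike numbers gave -0.699 to 0.510, and every negative value involved a library numbered 4. Among numbers 1 to 3, unlike numbers gave 0.366 to 0.510, so these values do not set apart the pairs numbered 1 and 2. Equal numbers were treated as pairs because of the labels. The group means include library 4, so its shift also enters the deviations of libraries 1 to 3. The value for number 4 shows a shift that both libraries numbered 4 share, and these values do not test the pairing. Variation between replicates, as edgeR's biological coefficient of variation, was 23.7%, and 10.6% once the block was added. No 2 libraries of a group agreed within sampling noise, with a chi-square per degree of freedom of 6.06 or more.

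The members, lists, alternatives and tests were chosen with earlier results of these data known. Members named with every library are those past the threshold with or without the replicate block, the 5 with the highest mean FPKM, and MB21D1, TMEM173, STAT2, IRF1, IRF7 and IRF9, and no further member had a log2 fold change beyond 1. Named pathway genes are those past the threshold. Other genes are named as chosen after their values were seen, by role, or in lists.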

Additional observations from a re-analysis of the deposited data

Results flagged for a closer look

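In 11 of 48 groups of 4 libraries, 1 library lay far from the other 3, by Dixon's test. The 48 groups are those of 24 genes: the 19 named members, the 4 named pathway genes and BARD1. Chance would give about 1 in 20, or 2.4 of 48, if the groups were independent. They are not, because all genes were read in the same 8 libraries. Some of the genes were also named because the replicate block changed their call. The count of 11 is therefore not a test against 2.4. All 11 were libraries numbered 4, 9 of them high and 2 low. In BARD1 siRNA library 4, IFITM3 was high at 197 CPM, against 41.2 to 56.1 CPM in the other 3. IFITM2 was high there at 77.6 CPM, against 18.2 to 23.9, STAT2 at 43.2 CPM, against 16.3 to 18.3, HLA-B at 60.3 CPM, against 36.8 to 38.2, and CANX at 439 CPM, against 261 to 286. IFNGR1 was low there at 14.3 CPM, against 16.6 to 16.9. In control siRNA library 4, IFIH1 was high at 3.45 CPM, against 1.38 to 1.69 in the other 3. DTX3L was high there at 42.6 CPM, against 25.2 to 26.9, B2M at 266 CPM, against 209 to 217, and IRF1 at 24.7 CPM, against 11.9 to 13.3. BARD1 was low there at 20.8 CPM, against 26.9 to 28. The cause of these differences was not tested.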

How the results depend on the processing

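Limits come from 4 libraries a group, of which the pair numbered 4 stands apart, and from low reads in members such as IRF9 and TMEM173. Over all genes 733 changed; the count was 3430 with the replicate block, 1244 by DESeq2 and 4428 without both libraries numbered 4, and 178 to 2506 when 1 library was left out. Members changed were 12 with the replicate block and 14 without both libraries numbered 4, and 0 to 9 with 1 library left out: 0 without each library numbered 1 to 3, 9 without BARD1 siRNA library 4 and 4 without control siRNA library 4. Pathway genes changed were 17 with the replicate block, 7 by DESeq2, 21 without both libraries numbered 4, and 2 to 16 with 1 library left out. The block moved all 3 counts by over 1.5 times, and the calls it changed among named members stand beside them. Leaving out both libraries numbered 4, with no block, moved all 3 counts further. The part that pairing had in these counts was not tested. The members' median log2 fold change was -0.040 without both libraries numbered 4 and -0.17 to 0.31 with 1 library left out, while BARD1 held at -3.21 to -2.50 in all 8 of these fits. Without a filter on low counts PML (adjusted p = 0.0505), RNASEH2A (0.0550) and TRIM56 (0.0864) missed the threshold.

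Higher genes were 36.2% of those changed (265 higher, 468 lower), 46.8% with upper-quartile scaling (413 higher, 470 lower; members 3 higher, 1 lower), 46.5% with the block, 44.4% by DESeq2 and 49.3% without both libraries numbered 4. None of the named genes that passed with all 8 libraries changed sign in the alternatives run. Among values that did not pass, B2M was 0.025 and MB21D1 0.0073 under upper-quartile scaling, and IRF9 -0.33 without both libraries numbered 4. With 1 library left out B2M ran from -0.14 to 0.075, MB21D1 from -0.11 to 0.052, IFITM3 from -0.997 to 0.17, IFITM2 from -0.98 to 0.041, TMEM173 from -0.83 to 0.082, IRF1 from -0.17 to 0.43 and IRF9 from -0.40 to 0.40. The causes were not tested.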
